A study of Rattus norvegicus with 8 samples.

Results

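DNA replication and cell cycle genes were examined in perfused rat liver as a group of 43 genes, of which 40 had a probe set with a single gene symbol, among 14506 named genes on the array. The members were chosen by gene name for their known place in the cell cycle, with earlier results of these data known. They comprise 9 regulators of G1 and of entry into S phase, 22 genes of S phase and 12 genes of mitosis, of which 9, 20 and 11 were measured. Mcm3, Mcm4 and Mki67 are not analysed here. Where a gene had several probe sets, the brightest one over the 8 arrays was taken.

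Livers of male Wistar rats, an outbred strain, aged 6 to 10 weeks per the series' design text, were perfused outside the body with Krebs-Henseleit buffer, a salt solution that keeps the organ alive. In the normoosmotic group (4 arrays) the buffer had 305 mosm/L, and in the hypoosmotic group (4 arrays) it had 225 mosm/L, which draws water into cells and swells them. All 8 samples carry the time point of 120 min, and both groups were perfused, so an unperfused liver is no part of the comparison. Whether each array stands for its own rat is not stated in the labels, so the p-values cover only the spread among these arrays, which may be technical. RNA came from whole liver, in which fewer cells of a type and less RNA per cell cannot be told apart. Markers of hepatocytes averaged between 12.19 and 12.34 log2 units on every array, near the top of the array's scale.

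The cell cycle leads a cell through G1, DNA synthesis in S phase, G2 and mitosis. D-type cyclins with Cdk4 and E-type cyclins with Cdk2 carry a cell from G1 into S phase by inactivating the retinoblastoma protein, which frees E2F factors to switch on the replication genes. Cyclins A and B with Cdk1 then drive mitosis. Hepatocytes of the adult liver are mostly quiescent and re-enter the cycle after tissue loss, so transcripts of S phase and mitosis are scarce in the resting organ.

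Levels are on the log2 scale, as the authors deposited them, and a change is the hypoosmotic mean minus the normoosmotic mean. Changes were tested with limma, with p-values adjusted by the Benjamini-Hochberg method over all 14506 genes and a call at an adjusted p under 0.05. For scale, 1105 olfactory receptor genes, which liver is not known to use, had a median of 1.99 and a 95th percentile of 3.32. Of the members, E2f1, Gins1, Slbp and Tipin had means under that percentile. Probe sets differ in affinity, so this is no detection call, and changes of dim genes can be compressed.

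Samples of a group were not alike in other respects. A clock score, the mean log2 level of Bmal1 and Npas2, which drive the circadian clock, less the mean of their targets Dbp and Per3, read −2.81, 1.27, −3.39 and 1.49 on normoosmotic arrays 1 to 4. It read 1.38, 1.09, −0.52 and −0.06 on hypoosmotic arrays 1 to 4. Normoosmotic arrays 1 and 3 thus stood apart from all others. Ccnd1, Ccne1, Ccne2, Cdk2, Tipin and Cdkn1a were among the genes that moved with them. Results for these genes are also given with the score as a covariate. Within the normoosmotic group the mitotic members also lay lower on arrays 1 and 3, with mean levels of 4.12 and 4.09. Hypoosmotic array 4 was as low, at 4.09, without a low score like theirs. The median change of the mitotic members is given with the score too. Hypoosmotic array 1 stood apart in the mitotic genes, whose results are given with and without it.

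Few of these genes passed the test. Tipin, which encodes a partner of Timeless that stabilises replication forks, fell, and it was the 1 member called, with 0 called higher. At the same threshold 1.98% of all genes were called, 0.558% higher and 1.42% lower, and 1 of 40 members is near that share. At an adjusted p under 0.1, 2 members passed, Tipin and Rrm2, where 4.14% of all genes did. At an unadjusted p under 0.05, 3 members passed, 1 higher and 2 lower, or 7.50% of the 40, against 14.6% of all genes.

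Estimates were small for most members of all 3 phases. The 9 G1 members had a median log2 change of 0.15, with 6 above 0 and a range from −0.24 to 0.24. The 20 S phase members had a median of 0.08, with 14 above 0 and a range from −0.61 to 0.81. For the 11 mitotic members the median was 0.035, with 7 above 0, 3 below and Bub1 at 0, between −0.04 and 0.27. Over all genes the median was 0.038, and 58.1% lay above 0. Differences between the phases were not tested. For 39 of the 40 members the 95% interval excluded a change of 2-fold in either direction, the exception being Rrm2.

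**Figure D1:**
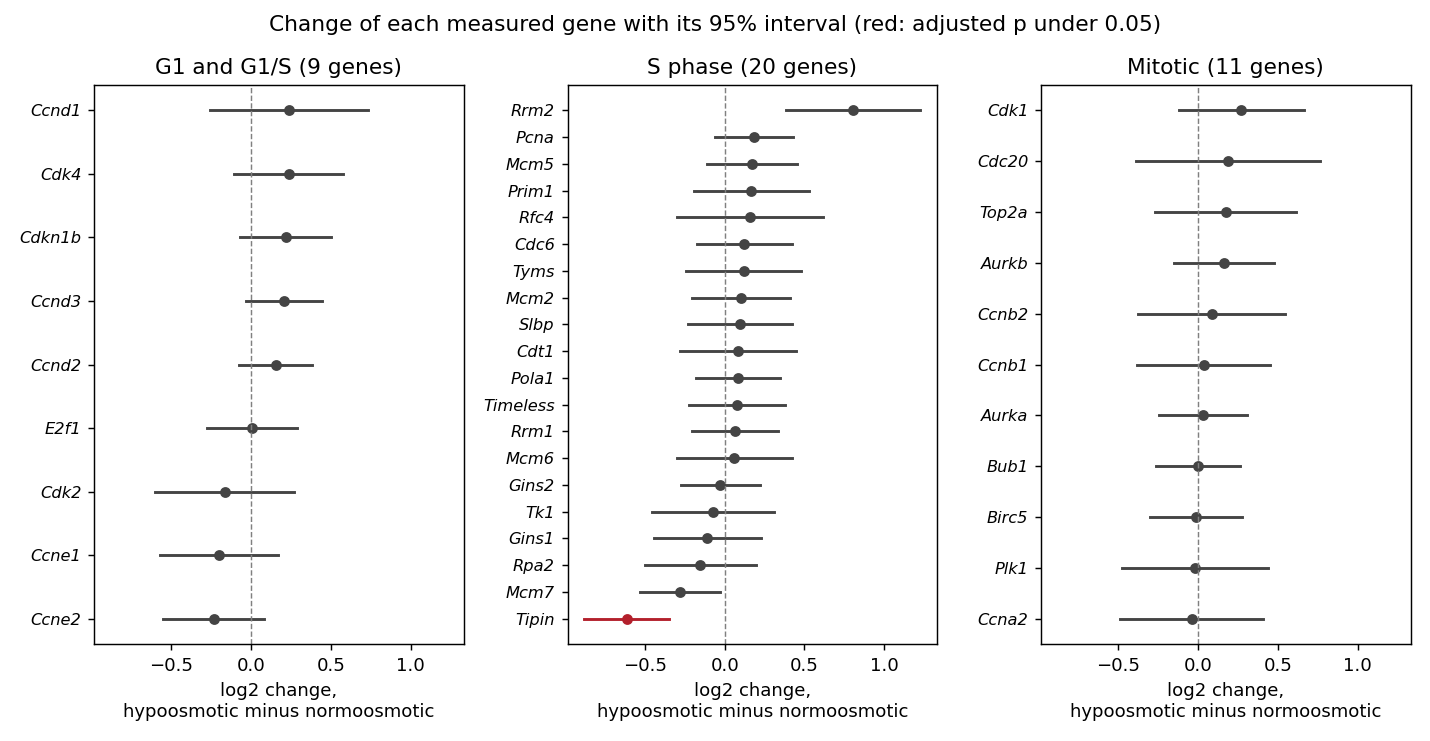
Log2 change (hypoosmotic minus normoosmotic, horizontal axis) of the 40 measured members, by phase, with points for the estimate and bars for the 95% interval of the limma fit. Tipin, in red at −0.61, was the 1 member called, and Rrm2 at 0.81 lay farthest to the right.

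The median spread within groups, as the residual SD, was 0.35 log2 units for mitotic members, against 0.23 for G1 members, 0.23 for S phase members and 0.19 for all genes. These spreads were not tested against each other. The mitotic members deviated from their group means largely on the same arrays.

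Among the G1 genes, the D-type cyclins link growth signals to the cycle. Ccnd1 read 6.74, 5.99, 6.90 and 5.71 on normoosmotic arrays 1 to 4 and 6.72, 6.44, 6.78 and 6.35 on hypoosmotic arrays 1 to 4. The normoosmotic values fell into a high pair, arrays 1 and 3, and a low pair, arrays 2 and 4, and all 4 hypoosmotic values lay above the low pair. Its log2 change was 0.24 with 95% limits of −0.26 and 0.73 (limma, adjusted p = 0.706).

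The high pair consists of the arrays with the lowest clock scores. Among the hypoosmotic arrays, array 3 had the lowest score and the highest Ccnd1 value, 6.78, while array 1 had the highest score and a Ccnd1 value of 6.72. With that score in the fit the log2 change of Ccnd1 was 0.50 (limma, adjusted p = 0.189), and without normoosmotic replicate 4 it was 0.029. The adjusted p over all its alternatives lay between 0.189 and 0.973.

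Ccnd2 was steadier, at 6.02 ± 0.05 in normoosmotic and 6.17 ± 0.13 in hypoosmotic samples (SD, n = 4 each). Ccnd3 read 5.20, 5.33, 5.37 and 5.34 on normoosmotic arrays and 5.40, 5.71, 5.42 and 5.53 on hypoosmotic arrays. Its groups did not overlap, with every hypoosmotic value the higher, though the gap was 0.03 and the log2 change of 0.21 did not pass (limma, adjusted p = 0.442). It was the 1 member apart in that direction, as were 3.21% of all genes. All 3 D cyclins thus had changes above 0, between 0.15 and 0.24, and none was called.

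Cdk4, the kinase partner of the D cyclins, averaged 7.17 ± 0.30 and 7.41 ± 0.21, a log2 change of 0.24 with a 95% interval of −0.11 to 0.58. Cdkn1b, which encodes the Cdk inhibitor p27, read 6.39, 6.33, 6.29 and 6.63 on normoosmotic arrays and 6.52, 6.75, 6.37 and 6.86 on hypoosmotic arrays. The Cdkn1b groups overlapped, and its log2 change was 0.22, with 95% limits of −0.07 and 0.50 (limma, adjusted p = 0.516). A cyclin kinase and an inhibitor of such kinases therefore had estimates of the same sign and similar size.

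The E-type cyclins and their kinase lay on the other side of 0. Ccne1 had a log2 change of −0.20 (95% interval −0.57 to 0.17), Ccne2 one of −0.24 (−0.55 to 0.08) and Cdk2 one of −0.17 (−0.60 to 0.27). Their intervals all included 0. In each of these genes normoosmotic arrays 1 and 3, with the lowest clock scores, held the highest values of the normoosmotic group. With that score in the fit the log2 changes were nearer to 0, at −0.079 for Ccne1, −0.138 for Ccne2 and −0.074 for Cdk2. Cdk2 varied most among the hypoosmotic samples, at 4.97, 5.25, 4.64 and 5.75 on arrays 1 to 4. E2f1, the transcription factor of the replication genes, was dim in both groups, at 3.13 ± 0.07 and 3.13 ± 0.24 (SD, n = 4 each), with a log2 change of 0.005.

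Promoters of S phase and mitotic genes are known for different motifs. The 250 bases before the start of transcription were read from RefSeq (GRCr8) for 32 of the 40 measured members. E2F sites were searched as TTTCCCGC, TTTGGCGC, TTTCGCGC and TTTGCCGC, the cell cycle genes homology region (CHR), a site bound by repressor and activator complexes of mitotic genes, as TTTGAA and TTCGAA, and the CCAAT box, which binds the factor NF-Y, as CCAAT, each on both strands. Words of different motifs overlapped in 2 of 34 member promoters, Mcm7 among them. A match is a description and not proof of a site. A promoter without a match may still hold a site, as only these words were searched.

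An E2F word lay in 9 of 18 S phase promoters, against 1.81% of all 27457 promoters of that length. It lay in 1 of 9 mitotic promoters, that of Cdk1, and in 0 of 5 G1 promoters. A CHR word together with a CCAAT box was found in 5 of 9 mitotic promoters, or 55.6%, in 2 of 18 S phase promoters and in 6.22% of all promoters. The members were chosen for their place in the cycle, so these shares describe known classes of genes.

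Shown first are the promoters of Tipin, the called gene, and Mcm7, whose interval also excluded 0. They lie at chr8:73675841-73676090 on the plus strand and at chr12:22163179-22163428 on the minus strand (GRCr8), and capitals mark the matched words.
Tipin: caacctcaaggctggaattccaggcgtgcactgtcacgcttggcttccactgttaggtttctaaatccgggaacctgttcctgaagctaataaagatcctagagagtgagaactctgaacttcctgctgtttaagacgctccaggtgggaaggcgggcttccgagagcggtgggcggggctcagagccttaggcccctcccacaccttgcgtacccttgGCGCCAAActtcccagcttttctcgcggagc
Mcm7: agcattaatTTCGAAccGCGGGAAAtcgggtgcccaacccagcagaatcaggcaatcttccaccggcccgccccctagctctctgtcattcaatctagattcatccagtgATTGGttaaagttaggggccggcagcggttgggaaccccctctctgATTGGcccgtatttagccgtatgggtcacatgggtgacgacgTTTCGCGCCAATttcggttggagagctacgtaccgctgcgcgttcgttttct
Tipin holds 1 E2F word, which starts 31 bases before the start of transcription, and no CCAAT box. Mcm7 holds 2 E2F words, starting 233 and 52 bases before the start, 3 CCAAT boxes and 1 CHR word.

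In S phase, the fork protection gene Tipin (probe set 10930531) read 3.57, 3.16, 3.61 and 3.33 on normoosmotic arrays 1 to 4 and 2.86, 2.73, 2.75 and 2.88 on hypoosmotic arrays 1 to 4. All 4 hypoosmotic values lay below all 4 normoosmotic ones, and below the 95th percentile of olfactory receptor genes. Tipin fell by 0.61 on the log2 scale with a standard error of 0.12, to 0.654 of the normoosmotic level, with 95% limits of 0.544 and 0.787 (limma, adjusted p = 0.0236). It was the 1 member apart in the downward direction, as were 5.05% of all genes.

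The call of Tipin depended on single arrays. By limma, leaving out normoosmotic replicate 1 gave an adjusted p of 0.0755 and leaving out normoosmotic replicate 3 one of 0.0842, the samples with the lowest clock scores and the highest Tipin values. Without hypoosmotic replicates 1, 2 and 3 it was 0.0534, 0.0882 and 0.0621. A fit that held the clock score gave 0.0715, within a range of 0.0164 to 0.0882 over 16 alternatives. In these 6 fits the log2 change lay between −0.52 and −0.63, with the value of −0.52 from the fit with the clock score. Timeless, whose product binds Tipin, had a log2 change of 0.08 with a 95% interval of −0.22 to 0.38.

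Rrm2, the regulated subunit of ribonucleotide reductase, which makes the building blocks of DNA, had the largest change of the members by size. It read 4.69, 4.85, 4.59 and 5.26 on normoosmotic arrays and 6.06, 5.44, 5.20 and 5.91 on hypoosmotic arrays. The groups overlapped only through normoosmotic array 4 and hypoosmotic array 3. The log2 change was 0.81, its standard error 0.20, and this 1.75-fold difference, with a 95% interval of 1.31 to 2.34, missed the threshold (limma, adjusted p = 0.0549).

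A second probe set of Rrm2 read 4.37, 4.64, 4.26 and 4.84 on normoosmotic arrays and 5.73, 5.02, 4.92 and 5.42 on hypoosmotic arrays. It followed the order of the first in both groups, with a difference of 0.75. Its groups did not overlap, though the highest normoosmotic value, 4.84, lay close to the lowest hypoosmotic one, 4.92. Both probe sets were read on the same arrays. Rrm2 passed in 7 of 17 alternatives, with adjusted p-values by limma between 0.029 and 0.158. Rrm1, the large subunit of the same enzyme, read 5.98 ± 0.16 and 6.05 ± 0.16 (SD, n = 4 each), so its log2 change was 0.07 with an interval of −0.20 to 0.33.

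The other genes of nucleotide supply had estimates nearer to 0. Tyms, which makes thymidylate, had a log2 change of 0.12 (95% interval −0.24 to 0.48), and Tk1, which salvages thymidine, one of −0.08 (−0.46 to 0.31). Tk1 spread from 4.61 to 5.60 over the hypoosmotic samples and from 5.01 to 5.34 over the normoosmotic ones. The 95% intervals of Tyms and Tk1 lay wholly below the estimate for Rrm2, though the difference between the genes was not tested.

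Mcm2 to Mcm7 encode the ring of the replicative helicase, and 4 of the 6 were measured. Mcm7 read 5.85, 5.95, 6.14 and 5.92 on normoosmotic arrays and 5.66, 5.88, 5.59 and 5.61 on hypoosmotic arrays. The groups overlapped through hypoosmotic array 2 alone, and the log2 change of −0.28 (95% interval −0.53 to −0.03) did not pass over all genes (limma, adjusted p = 0.273). Mcm2, Mcm5 and Mcm6 had log2 changes of 0.10, 0.17 and 0.06, all with intervals that included 0. Subunits of the same ring thus had estimates on both sides of 0, Mcm7 with 2 E2F words in its promoter and Mcm5 with 3, of which 2 overlap, among them.

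Cdc6 and Cdt1 load that ring onto DNA, and Gins1 and Gins2 belong to the complex that activates it. Cdc6 and Cdt1 had log2 changes of 0.12 and 0.08, and Gins1 and Gins2 changes of −0.11 and −0.027. The 4 intervals lay within 0.5 of 0, so larger changes were outside them. Gins1 was dim in both groups, at 2.72 ± 0.11 and 2.61 ± 0.34 (SD, n = 4 each).

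Pcna, the sliding clamp of the DNA polymerases, read 7.21, 7.10, 7.08 and 7.18 on normoosmotic arrays and 7.31, 7.27, 7.18 and 7.55 on hypoosmotic arrays. The groups overlapped at hypoosmotic array 3, and its estimate of 0.19 had 95% limits of −0.06 and 0.43 (limma, adjusted p = 0.507). Rfc4, a subunit of the clamp loader, had the widest range among S phase members, at 3.92, 4.09, 4.24 and 4.52 on normoosmotic and 4.90, 4.16, 3.77 and 4.58 on hypoosmotic arrays. Its hypoosmotic values reached beyond the normoosmotic ones on both sides, around a change of 0.16. Pola1 and Prim1, which start new strands, had changes of 0.08 and 0.17, Rpa2, a subunit that coats single-stranded DNA, one of −0.15, and Slbp, which binds histone mRNA, one of 0.10. None of these 6 genes was called.

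**Figure D2:**
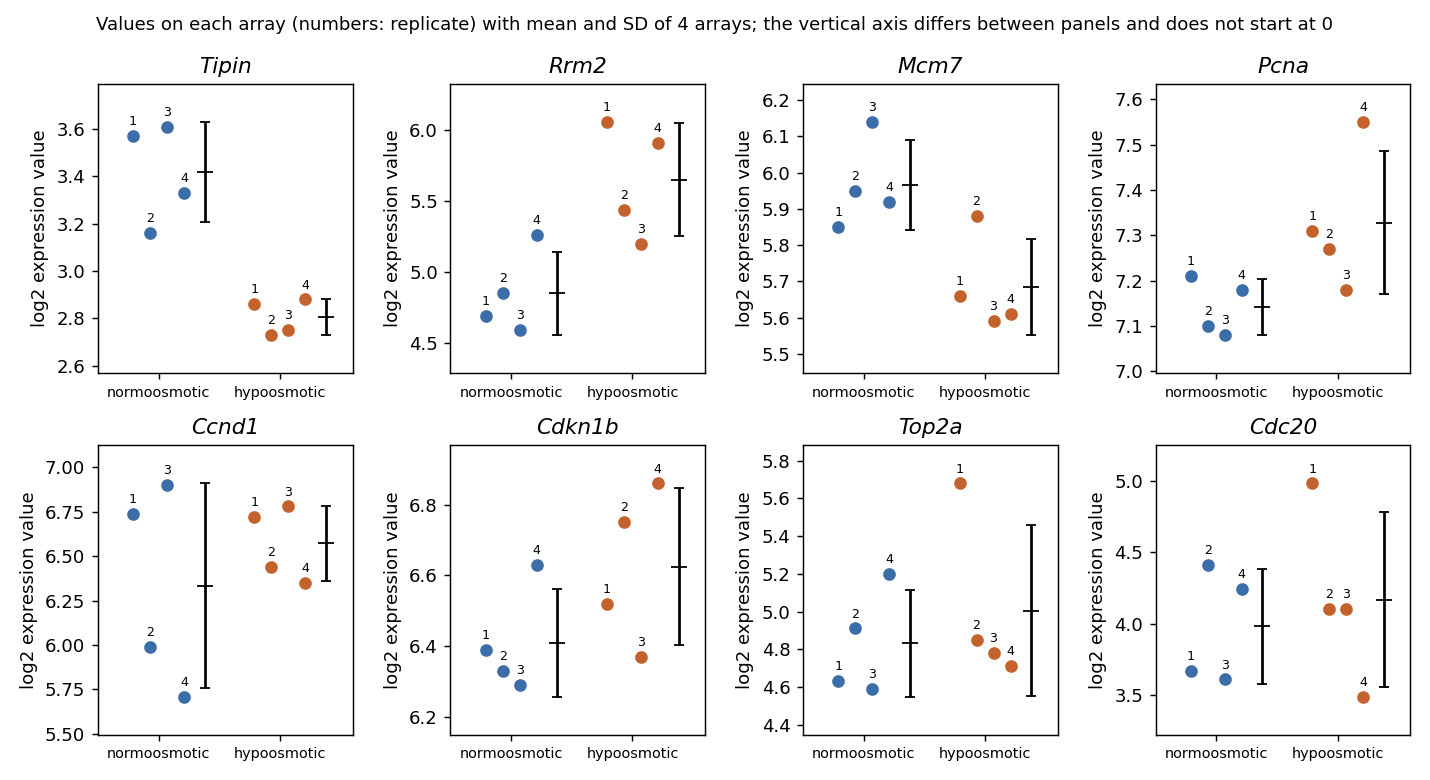
Log2 expression values of 8 members on each array, with replicate numbers above the points and bars for the mean and SD of 4 arrays per group. All hypoosmotic values of Tipin lay below the normoosmotic ones, while Ccnd1 split within the normoosmotic group and Top2a and Cdc20 were highest on hypoosmotic array 1.

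Among mitotic genes no member was called, and at an unadjusted p under 0.05 there were 0 as well. Cdk1, the kinase that drives mitosis, read 3.00, 3.72, 3.74 and 3.40 on normoosmotic arrays and 3.94, 3.68, 3.97 and 3.35 on hypoosmotic arrays. Its groups overlapped between 3.35 and 3.74. The log2 change of Cdk1, 0.27 with an interval of −0.12 to 0.66, gave the smallest p of the mitotic members (limma, adjusted p = 0.557). Its cyclin partners Ccnb1, Ccnb2 and Ccna2 had changes of 0.035, 0.085 and −0.04.

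Top2a, the topoisomerase that untangles chromosomes, read 4.63, 4.91, 4.59 and 5.20 on normoosmotic arrays and 5.68, 4.85, 4.78 and 4.71 on hypoosmotic arrays. Cdc20, an activator of the anaphase-promoting complex, read 3.67, 4.41, 3.61 and 4.24 and then 4.98, 4.10, 4.10 and 3.49. In both genes hypoosmotic array 1 held the highest of the 8 values and normoosmotic arrays 2 and 4 lay above normoosmotic arrays 1 and 3. The log2 change of Top2a was 0.17 with 95% limits of −0.27 and 0.62 (limma, adjusted p = 0.770). Cdc20 had the widest range of all members within a group, 1.49 log2 units, around a log2 change of 0.19 (95% interval −0.39 to 0.76).

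The mitotic kinases and the remaining members had small estimates. Aurka, Aurkb and Plk1, kinases of the spindle and of chromosome segregation, had log2 changes of 0.033, 0.16 and −0.02. Bub1, a kinase of the spindle checkpoint, averaged 3.98 in both groups, and Birc5, which encodes survivin of the chromosomal passenger complex, had a change of −0.012. The 95% intervals of these 5 genes reached no farther than −0.48 and 0.47.

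The mitotic members varied together across arrays, a pattern chosen for description after the values were seen. On hypoosmotic array 1 all 11 lay above their group mean and 9 of 11 were the highest of their group, where 20.9% of all genes were. Their median deviation from the group mean was 0.58 log2 units on that array, against 0.09 for the S phase members, −0.09 for the G1 members and −0.018 for all genes. Hypoosmotic array 4 was the lowest of its group in 8 of the 11, where 26.2% of all genes were lowest, with a median deviation of −0.28.

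Next are promoters of mitotic members that were highest on hypoosmotic array 1, at chr8:79981659-79981908, chr5:137255800-137256049 and chr10:84473094-84473343, all on the minus strand (GRCr8).
Ccnb2: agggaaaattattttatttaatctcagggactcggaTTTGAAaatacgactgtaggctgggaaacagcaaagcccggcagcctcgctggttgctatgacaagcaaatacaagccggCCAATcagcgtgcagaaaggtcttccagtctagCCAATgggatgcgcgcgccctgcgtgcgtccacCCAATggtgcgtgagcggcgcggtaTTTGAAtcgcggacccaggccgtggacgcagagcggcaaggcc
Cdc20: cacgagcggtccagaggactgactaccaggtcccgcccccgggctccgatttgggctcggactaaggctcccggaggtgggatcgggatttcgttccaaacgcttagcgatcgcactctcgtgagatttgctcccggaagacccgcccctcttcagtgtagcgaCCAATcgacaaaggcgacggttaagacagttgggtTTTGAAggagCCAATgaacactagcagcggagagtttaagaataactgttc
Top2a: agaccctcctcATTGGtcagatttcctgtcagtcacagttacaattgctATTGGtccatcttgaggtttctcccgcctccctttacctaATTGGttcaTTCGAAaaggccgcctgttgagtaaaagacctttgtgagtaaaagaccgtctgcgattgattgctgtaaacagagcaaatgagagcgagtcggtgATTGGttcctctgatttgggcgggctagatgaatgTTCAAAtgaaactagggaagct
Ccnb2 holds 3 CCAAT boxes, which start 134, 101 and 68 bases before the start of transcription, and a CHR word 43 bases before it, with another farther upstream. Cdc20 holds CCAAT boxes 86 and 41 bases before the start with a CHR word 51 bases before it. Top2a holds 4 CCAAT boxes, all on the opposite strand, and 2 CHR words. On hypoosmotic array 1 these 3 genes read 5.87, 4.98 and 5.68, against group means of 5.27, 4.17 and 5.01. Cdk1 and Birc5, which also hold both motifs, read 3.94 and 4.47 there, against group means of 3.74 and 4.32. Ccnb1 and Plk1, which hold CCAAT boxes and no CHR word, read 5.11 and 4.99, against 4.505 and 4.41. Aurka and Bub1, with no word of the 3 motifs, read 3.53 and 4.21, against 3.50 and 3.98. High values on hypoosmotic array 1 occurred with and without a CHR word of those searched, and their relation to the motifs was not tested.

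In the normoosmotic group, arrays 2 and 4 lay above the mean, with median deviations of 0.22 and 0.19, and arrays 1 and 3 below it, with −0.11 and −0.22. The median log2 change of the mitotic members was accordingly −0.077 without hypoosmotic replicate 1 and 0.157 when hypoosmotic replicate 4 was left out. With all arrays it lay near the 0.038 of all genes. Without hypoosmotic replicate 1 the log2 change was 0.202 for Cdk1, 0.058 for Aurkb, 0.022 for Aurka, −0.052 for Top2a, −0.063 for Birc5 and −0.077 for Bub1. It was −0.086 for Cdc20, −0.117 for Ccnb2, −0.167 for Ccnb1, −0.214 for Plk1 and −0.249 for Ccna2, so 8 of the 11 estimates lay below 0 and none was called. The median change of the S phase members was 0.009 without hypoosmotic replicate 1, and that of the G1 members 0.029 without normoosmotic replicate 4. Normoosmotic arrays 1 and 3, on which the mitotic members lay low, were those with the lowest clock scores. Hypoosmotic array 1 had the highest score of its group, 1.38. Array 2 of that group, with a score of 1.09, had a mitotic median deviation of −0.12. Arrays 3 and 4, with scores of −0.52 and −0.06, had −0.07 and −0.28. The relation of the mitotic pattern to the clock score was not tested.

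**Figure D3:**
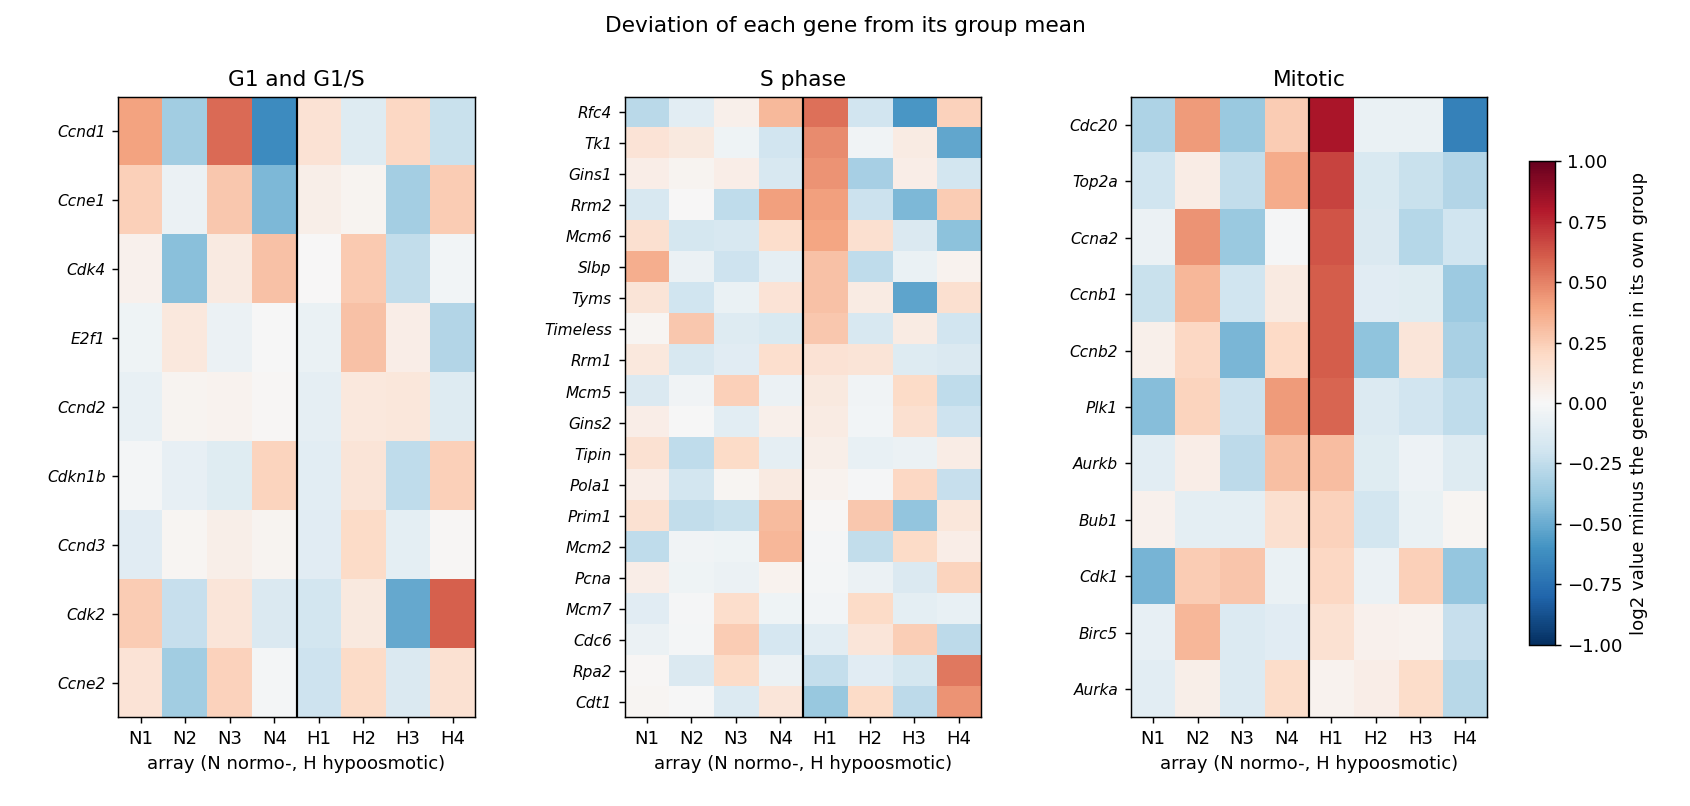
Deviation of each member's log2 value from the mean of its own group (colour, red above and blue below) on 4 normoosmotic (N) and 4 hypoosmotic (H) arrays. Array H1 is red for all 11 mitotic members and H4 is at or below the mean for all but Bub1. Among G1 members 8 of 9 lie above the mean on H2 and 7 of 9 on N3.

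A further 49 genes of G2 and mitosis outside the member list also had their highest median deviation on hypoosmotic array 1 and their lowest on hypoosmotic array 4, with arrays 2 and 3 tied between them at −0.07. On hypoosmotic array 1, 33 of the 49, or 67.3%, were the highest of their group, against 20.9% of all genes, with a median deviation of 0.22. On hypoosmotic array 4, 23, or 46.9%, were the lowest, against 26.2% of all genes, with a median deviation of −0.13. On normoosmotic arrays 1 to 4 the median deviations of the 49 were 0.007, 0.008, −0.088 and 0.06. Those of the mitotic members were −0.105, 0.223, −0.218 and 0.185, so their split within the normoosmotic group was largely not seen in the 49. The 30 other replication genes had a median deviation of 0.025 on hypoosmotic array 1. These genes were measured on the same arrays as the members and are no independent samples.

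Markers of other cell types were read on the same arrays. On hypoosmotic array 1 the 8 markers of lymphocytes averaged 3.17, the highest of the 8 arrays, within ranges of 2.93 to 3.05 in normoosmotic and 2.89 to 3.17 in hypoosmotic samples. The 5 erythroid markers averaged 3.19 there, in ranges of 2.96 to 3.15 and 2.88 to 3.19, and the 6 neutrophil markers 3.02, in ranges of 2.63 to 2.97 and 2.63 to 3.06. Of these markers 6 of 8, 3 of 5 and 4 of 6 had means under the 95th percentile of olfactory receptor genes. Hypoosmotic array 1 held the highest of the 8 values for 4 of 8 lymphocyte, 2 of 5 erythroid and 1 of 6 neutrophil markers, and the lowest for 1, 1 and 0 of them. Of the lymphocyte markers Cd3g, Cd2, Cd8a and Klrd1 were highest there, at 2.79, 3.06, 3.57 and 2.80, and Cd3e was lowest at 2.87. Of the erythroid markers Hemgn and Ahsp were highest, at 3.48 and 2.31, and Epb42 was lowest at 3.17.

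Macrophage markers averaged 6.56 on hypoosmotic array 1, in ranges of 6.43 to 6.91 and 6.44 to 7.09, so they were not highest there. Sinusoidal endothelial markers averaged between 6.82 and 7.22, stellate cell markers between 6.14 and 6.86 and cholangiocyte markers between 4.08 and 4.62 over the 8 arrays. By limma 0 of the 53 markers of the 8 cell types were called, and 3 had an unadjusted p under 0.05. The part of other cell types in the mitotic pattern was not tested.

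**Figure D4:**
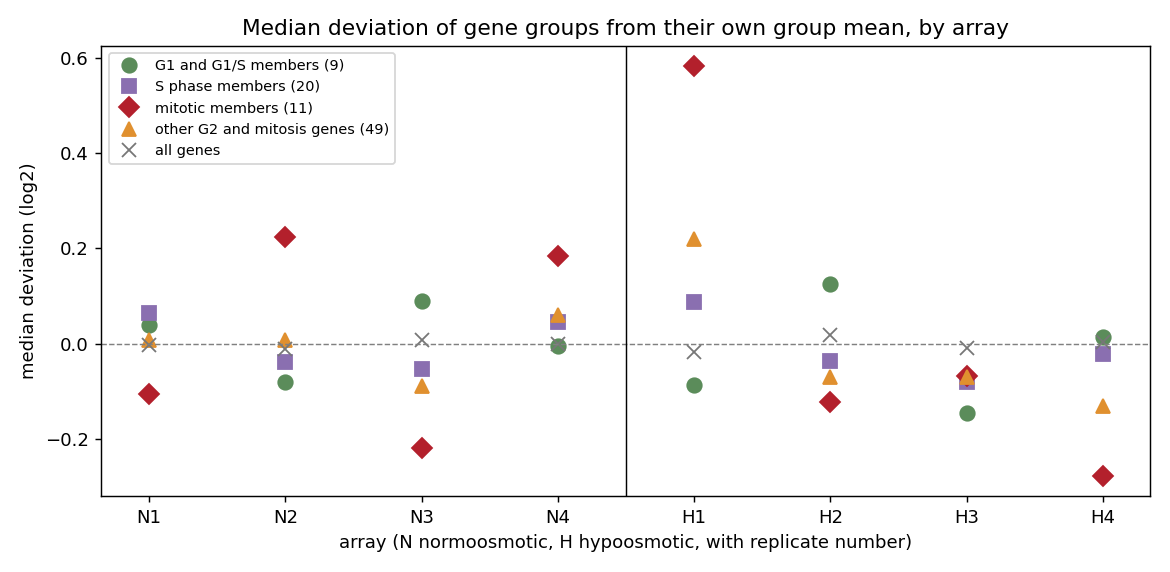
Median over each gene group of the deviation from the gene's mean in its own buffer group (log2, vertical axis) on each array. Mitotic members reached 0.58 and other genes of G2 and mitosis 0.22 on array H1, while all genes together stayed near 0 on every array.

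Cell cycle genes outside the member list were counted in 3 lists with 100 of 128 genes measured. By limma 0 were called in either direction, and 12 had an unadjusted p under 0.05, 6 higher and 6 lower, or 12.0% against the 14.6% of all genes. The groups did not overlap for 3 of the 100 in the upward and 2 in the downward direction, against 3.21% and 5.05% of all genes. Of 21 other G1 control genes 6 had an unadjusted p under 0.05, 1 higher and 5 lower, with a list median of −0.11. Among 30 other replication genes there were 3 higher and 1 lower, with a median of 0.058, and among 49 other genes of G2 and mitosis 2 higher and 0 lower, with a median of 0.053.

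In the G1 control list, Rb1, which encodes the retinoblastoma protein, read 5.76, 5.21, 5.67 and 5.83 on normoosmotic arrays and 4.94, 4.76, 4.78 and 5.54 on hypoosmotic arrays. Its hypoosmotic array 4 lay within the normoosmotic range and the other 3 below it, and the log2 change was −0.61 (limma, adjusted p = 0.114). Without hypoosmotic replicate 4 it was −0.79 (limma, adjusted p = 0.0233, in a range of 0.0233 to 0.302 over its alternatives). Cdc25a, a phosphatase that activates cyclin kinases, had groups that did not overlap, at 4.61 ± 0.19 and 4.22 ± 0.08 (SD, n = 4 each) and a log2 change of −0.39 (limma, adjusted p = 0.121).

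Cdkn1a, which encodes the Cdk inhibitor p21, read 6.43, 7.36, 6.59 and 7.24 on normoosmotic arrays and 7.44, 7.61, 7.37 and 7.43 on hypoosmotic arrays. Its low normoosmotic values were those of arrays 1 and 3, the arrays on which Ccnd1 was high. The groups did not overlap, though the lowest hypoosmotic value, 7.37, barely exceeded the highest normoosmotic one, 7.36. The log2 change of 0.56 did not pass (limma, adjusted p = 0.162), and in the fit that held the clock score it was 0.34.

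Of the other replication genes, Mcm10, a loading factor of the replication machinery, read 4.16 ± 0.13 and 4.61 ± 0.15 (SD, n = 4 each), with groups that did not overlap and a log2 change of 0.44 (limma, adjusted p = 0.0741). Rfc3, a subunit of the clamp loader with Rfc4, had a change of 0.41 (adjusted p = 0.106) and Pold3, a subunit of DNA polymerase delta, one of −0.36 (adjusted p = 0.168), both with groups that did not overlap. Cdca3, Kif22 and Aspm, genes of mitosis, had changes of 0.36, 0.26 and 0.33, with adjusted p-values of 0.309, 0.324 and 0.352 by limma. Cdca3 and Aspm were highest on hypoosmotic array 1, at 3.45 and 4.27. Cdca3 was dim, and its mean of 2.82 over the 8 arrays lay under the 95th percentile of olfactory receptor genes.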

How the data were processed

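Total RNA was labelled with biotin and hybridised to 1-colour Affymetrix arrays, per the labels' protocols. The submitters' processing notes name Transcriptome Analysis Console 4.0. How probes were summarised and arrays normalized is not given in the sources used here. Per their range, log2 values fill the authors' deposited table of 27596 probe sets, with array medians between 4.05 and 4.16. An array has no read depth, and 4 arrays per group limit precision.

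Of the probe sets, 15310 had 1 gene symbol in the platform annotation, 323 several, and 11963 are unnamed here. For 15279 of the probe sets with 1 symbol the gene ID was found in the RefSeq table of GRCr8. The symbol given there was used, whether or not it differed, and the others kept theirs, which gave 14506 genes. limma 3.58.1 in R 4.3.3 (lmFit, eBayes, two-sided, group as the only term) was fitted on all of them, with no filter on low values, and checked on simulated data. The members, lists and alternatives were chosen with earlier results of these data known. All members are named. Values on every array are given for called members, those with an unadjusted p under 0.05, fixed genes, and in each phase the smallest p and widest range. From each other list come the 3 smallest p-values. Full values of Cdk2 and the genes whose promoters are shown beyond this rule were chosen after their values were seen, and E2f3 likewise.

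Other settings tried were leaving out each array or the dimmest 25% of genes, array weights, centring on array medians, quantile normalization, a prior that was trended and robust, a replicate block, the mean over a gene's probe sets, all probe sets in the fit, and the clock score.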

Additional observations from a re-analysis of the deposited data

Results flagged for a closer look

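In 5 of 98 groups of 4 arrays tested, drawn from the members and the 9 other genes named, 1 array lay far from the other 3 of its group (Dixon's test, for which chance gives about 1 in 20). Hypoosmotic array 1 was the far one for 3 mitotic genes, at 5.06 for Ccna2, 5.68 for Top2a and 4.99 for Plk1. Normoosmotic array 2 was the far one for Birc5, at 4.66, and hypoosmotic array 4 for Rpa2, at 5.51. The 3 flags on hypoosmotic array 1 concern genes that also varied together, so they are not 3 separate events.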

How the results depend on the processing

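The count of called members was 1, Tipin, and it was 2, Tipin and Rrm2, after quantile normalization, with array weights, with the trended and robust prior, with the replicate block and at an adjusted p under 0.1. It was 0 with the clock score as a covariate and between 0 and 2 with an array left out. Without the dimmest 25% of genes Tipin was not tested and Rrm2 was called. The count for other cell cycle genes was 0, and between 0 and 2 with an array left out, the 2 being Rb1 and E2f3 without hypoosmotic replicate 4. Over all genes 287 were called, and 395 with array weights, 256 with the replicate block, 92 with the clock score and between 81 and 365 with an array left out. The labels do not say whether same-numbered samples were paired, and the main fit did not pair them. Deviations of same-numbered arrays correlated at 0.046, 0.028, 0.083 and 0.173, and those of differently numbered arrays between −0.302 and 0.206. With so few arrays these values cannot settle whether samples were paired. Left-out arrays moved the median change of G1 members between 0.029 and 0.182 and of S phase members between 0.009 and 0.115. The median of mitotic members was −0.008 after quantile normalization and −0.052 with the clock score.

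Signs turned only for uncalled genes. E2f1 changed by −0.025 after subtraction of array medians, −0.058 after quantile normalization and −0.032 with the clock score. Aurka changed by −0.019 and −0.034 and Ccnb1 by −0.008 and −0.12 in the last 2 settings, and with the clock score Ccnb2 by −0.052 and Cdc20 by −0.061. With array weights Birc5 changed by 0.021, Ccna2 by 0.041 and Plk1 by 0.053. With an array left out the changes ranged from −0.028 to 0.125 for Aurka, −0.063 to 0.097 for Birc5, −0.249 to 0.109 for Ccna2, −0.167 to 0.157 for Ccnb1, −0.117 to 0.22 for Ccnb2 and −0.086 to 0.411 for Cdc20. They ranged from −0.364 to 0.006 for Cdk2, −0.067 to 0.209 for Cdt1, −0.092 to 0.102 for E2f1, −0.259 to 0.001 for Gins1, −0.081 to 0.043 for Gins2 and −0.071 to 0.196 for Mcm6. For Plk1 the range was −0.214 to 0.121, for Rfc4 −0.022 to 0.354, for Timeless −0.012 to 0.167, for Tk1 −0.232 to 0.097 and for Top2a −0.052 to 0.295. The cause of these shifts was not tested.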
